A study of Mus musculus with 3 samples.

Results

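Steroid receptors, their co-chaperones and their coregulators were followed in the genital tubercle of 3 mouse embryos, the bud from which the external genitalia of both sexes grow. The set was chosen by gene symbol, as every probe set annotated to exactly 1 symbol among 9 listed genes. No measured value entered that rule, but earlier results of these data were known when it was set. It covers the oestrogen receptors Esr1 and Esr2, the glucocorticoid receptor Nr3c1, the co-chaperones Fkbp4 and Fkbp5, the coactivators Ncoa1, Ncoa2 and Ncoa3 and the corepressor Ncor1. Of the 9 genes 8 had a probe set, 25 probe sets in all of the 45037 analysed, and 18193 genes were measured on the array. No probe set carried the symbol Ncor1 alone, so that corepressor was not analysed here.

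Steroid receptors are transcription factors that are switched on by a hormone. Before the hormone arrives they are held by Hsp90 in complexes that also contain a co-chaperone with a peptidyl-prolyl isomerase fold, such as FKBP52 (Fkbp4) or FKBP51 (Fkbp5), and for the glucocorticoid receptor the former favours and the latter dampens activity. A receptor bound to hormone and DNA recruits p160 coactivators of the Ncoa family, which bring in histone acetyltransferases, whereas antagonist-bound receptors can recruit the corepressor NCoR1 and its histone deacetylase partner. In the genital tubercle the balance of androgen and oestrogen signalling directs male or female form, and Fkbp4 is known to be needed for normal closure of the penile urethra.

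FVB/N females were crossed with SMAA/EYFP transgenic males, whose transgene is a yellow fluorescent reporter named for smooth muscle actin (Acta2), and the tubercle was dissected at embryonic day 14 (Theiler stage 22) by its fluorescence. The 3 samples form 1 group labelled male, none of them pooled and none treated, with 1 array per sample, so every embryo shares the strain and the transgene and there is no control. Replicates 1 and 2 were staged by indented borders of the footplates and replicate 3 by fingers already visible. Nothing in the labels places the embryos in separate litters or batches, so the spread between them may be partly technical, and precision is limited by the small number of arrays.

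Levels are deposited signals, linear intensities per probe set. A probe set was called above background where its signal exceeded that of 95% of 81 chemosensory receptor probe sets in the same sample, genes of the nose and tongue, a cutoff of 135.8, 253.1 and 197 in replicates 1, 2 and 3. Replicate 3 went against its label, since the main probe set of Xist, expressed from the inactive X chromosome of female cells, read 8.05, 118 and 61883 in replicates 1, 2 and 3, and the Y-linked Eif2s3y read 4384, 3738 and 37.9. The Y-linked Kdm5d (529, 441 and 37.1) and Uty (616, 494 and 45.3) were likewise above background in replicates 1 and 2 and not in replicate 3. On these genes replicate 3 read as female. All directions given for replicate 3 below are of a library that goes against its male label, and means over all samples mix the apparent sexes. The mesenchyme markers Hoxd13, Isl1, Prrx1, Tbx4, Tbx5 and Twist1 were above background in every sample, 6 of 6. So were 6 of 6 epithelial markers including Shh and Trp63. Detection alone does not establish the tissue, since 60.5% of all genes measured were above background in every sample. Of the smooth muscle markers 3 of 6 were above background in every sample (Acta2, Myh11 and Des), and Cnn1 was above it in none. Summed signals of 6 liver markers were 110988, 52096 and 9252 and of 6 skeletal muscle markers 14014, 3613 and 1952 in replicates 1, 2 and 3, highest in replicate 1 in both cases, and their part in the members' values was not tested. In these whole-tissue samples fewer cells of a type and less RNA per cell cannot be told apart.

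Of the 8 genes with a probe set, 7 exceeded background in every sample on their main probe set, the probe set of highest mean signal. The exception was Esr2. On the same measure 60.5% of all genes measured exceeded background in every sample. With the probe set of median signal in place of the brightest, 4 member genes did. No share over all genes was computed for that choice. Of the 25 member probe sets 14 were above background in all 3 samples, against 48.0% of all probe sets analysed, 3 in 2 samples, 3 in 1 sample and 5 in none. Leaving out replicate 3 gave the same counts, 7 genes and 14 probe sets.

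**Figure D1:**
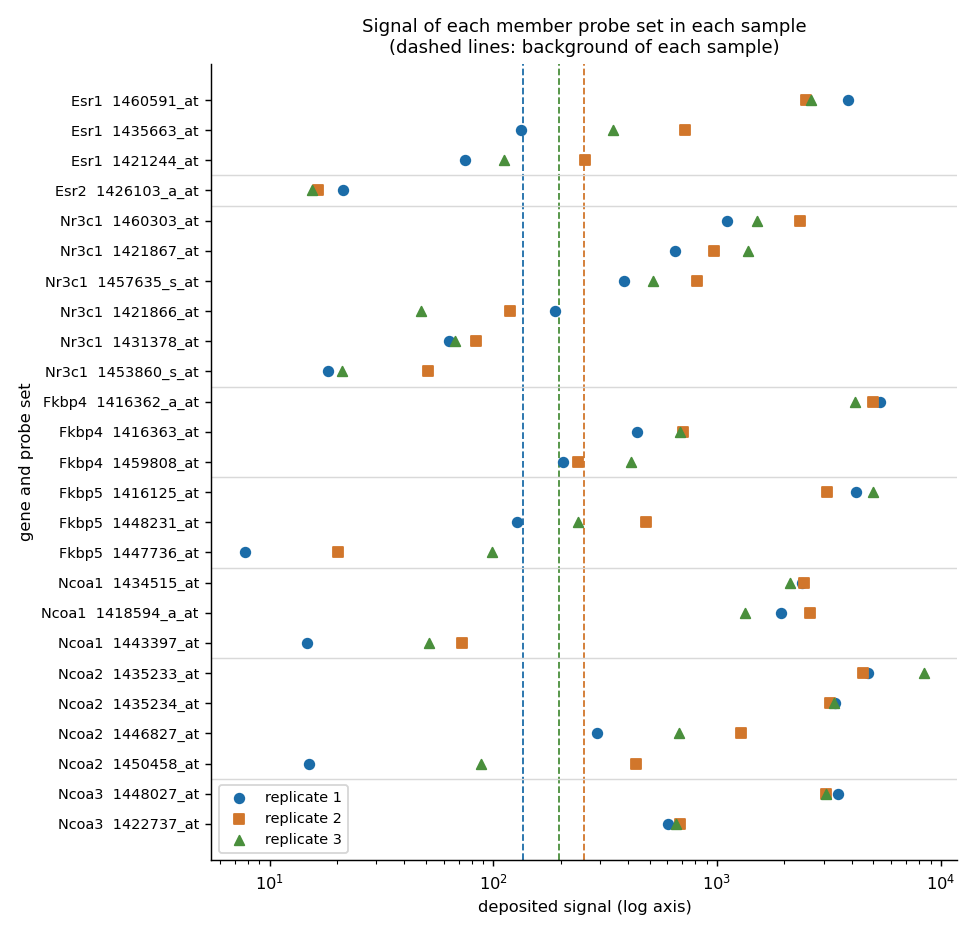
Deposited signal (log axis) of each of the 25 member probe sets in each sample, grouped by gene and ordered by mean signal within a gene, with dashed lines at the background of each sample. Esr2 lies left of all 3 lines, while the first probe set of each other gene lies right of them; Esr1, Nr3c1, Fkbp4, Fkbp5 and Ncoa2 also have probe sets within or across the lines.

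The oestrogen receptors differed in detection on their main probe sets. Esr1, which encodes oestrogen receptor alpha, had signals of 3833, 2487 and 2635 in replicates 1, 2 and 3 on its main probe set (1460591_at), a mean of 2985 ± 738 (SD, n = 3). Replicate 1 was the highest and the other samples lay close together, and each deposited signal was 9.83-fold or more over its own background. Esr2, which encodes oestrogen receptor beta, was represented by 1 probe set (1426103_a_at) with signals of 21.4, 16.5 and 15.5. All 3 values lay far under background, which gives a bound on the level and not an absence of the transcript.

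The remaining Esr1 probe sets did not follow the main one. Probe set 1435663_at, annotated to the same source transcript, read 133, 723 and 344 and exceeded background only in replicates 2 and 3. After alignment of the samples it was at least 4.55-fold higher in replicate 2 and at least 2.39-fold higher in replicate 3 than in replicate 1. Probe set 1421244_at read 74.5, 257 and 111 and exceeded background only in replicate 2. Thus the sample with the highest Esr1 signal on the main probe set had the lowest on 1435663_at. On 1421244_at replicates 1 and 3 were both under background, so their order is not measured. No direction between embryos can be given for the gene as a whole.

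The promoters of the receptor pair are shown because these genes differ in detection on their main probe sets. From the RefSeq promoter table of build GRCm38.p6, windows of 6 of the 9 listed genes were read. Windows on the chromosome of Nr3c1 were left out before this count, so it does not show what the table held for that gene. The 250 bases upstream of the start were read 5′ to 3′ on the strand of the gene. Capitals mark a CCAAT box (CCAAT on either strand).

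Esr1 chr10:4611739-4611988 (plus strand): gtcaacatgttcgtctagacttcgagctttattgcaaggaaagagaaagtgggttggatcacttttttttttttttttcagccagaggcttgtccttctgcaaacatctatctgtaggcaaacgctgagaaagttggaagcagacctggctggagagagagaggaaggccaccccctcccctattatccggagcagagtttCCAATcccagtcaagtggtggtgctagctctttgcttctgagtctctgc

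Esr2 chr12:76177260-76177509 (minus strand): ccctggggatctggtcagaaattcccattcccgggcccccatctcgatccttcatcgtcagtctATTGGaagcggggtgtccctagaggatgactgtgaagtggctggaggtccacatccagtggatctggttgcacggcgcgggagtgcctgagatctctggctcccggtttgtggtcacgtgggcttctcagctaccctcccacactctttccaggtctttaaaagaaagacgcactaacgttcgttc

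Esr1 had 4 CpG dinucleotides and 47.6% G and C in this window, and Esr2 had 12 and 56.4%, against medians of 6 and 52.4% over 32851 promoters of the table. Both windows held 1 CCAAT box, which was present in 33.8% of all promoters. Neither held a GC box (GGGCGG on either strand), found in 32.7% of promoters, nor a TATA box (TATAAA on either strand), found in 12.4%. The undetected receptor gene therefore had the richer CpG content of the pair in this stretch. A second Esr1 window of the same table, starting at 4709908 on chromosome 10, had 7 CpG dinucleotides and none of these motifs.

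Nr3c1, which encodes the glucocorticoid receptor, was above background in 3 of 3 samples on 3 of its 6 probe sets. Its main probe set (1460303_at) read 1103, 2343 and 1502 in replicates 1, 2 and 3, a mean of 1649 ± 633 (SD, n = 3), with replicate 2 highest. Probe set 1457635_s_at followed the same order at 383, 809 and 518. Probe set 1421867_at read 651, 970.3 and 1376, with replicate 1 again lowest but replicate 3 highest. All 3 probe sets were lowest in replicate 1, by 2.11- to 2.12-fold in deposited signal between the lowest and the highest sample. After alignment none of these differences reached 2-fold, with SDs of 0.43, 0.50 and 0.43 on the log2 scale. Of the other Nr3c1 probe sets 1421866_at read 189, 119 and 47.5 and exceeded background only in replicate 1, where background was lowest. Probe sets 1431378_at (63.6, 83.6 and 67.5) and 1453860_s_at (18.2, 50.9 and 21.0) were above it in no sample.

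The co-chaperones were both above background in every sample. Fkbp4 had signals of 5358, 4957 and 4125 in replicates 1, 2 and 3 on its main probe set (1416362_a_at), a mean of 4813 ± 629 (SD, n = 3) with an SD of 0.24 on the aligned log2 scale. Replicate 3 was lowest by a small margin. On probe set 1416363_at, annotated to the same source transcript, replicate 1 was lowest, with 438, 704 and 681. Probe set 1459808_at read 205, 238 and 415 and was not above background in replicate 2. In replicate 3 it was at least 1.80-fold higher than in replicate 2 after alignment.

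Fkbp5, itself a target gene of glucocorticoid and other steroid receptors, had signals of 4168, 3113 and 4992 on its main probe set (1416125_at), a mean of 4091 ± 942 (SD, n = 3). Replicate 3 was highest and replicate 2 lowest. Probe set 1448231_at, annotated to the same source transcript, gave the reverse picture for replicate 2, with 128, 479.8 and 239: replicate 2 was highest and at least 3.02-fold above replicate 1 after alignment. The third probe set (1447736_at) was above background in no sample, at 7.80, 20.3 and 98.5. The order of the embryos for Fkbp5 therefore depended on the probe set, as it did for Esr1.

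Promoters of the co-chaperone pair are shown because the genes encode related proteins with opposing effects on the glucocorticoid receptor and both were detected. Capitals mark GC boxes, CCAAT boxes and, in Fkbp4, the core of a heat shock element (GAANNTTC, the same on both strands), the site class bound by heat shock factors.

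Fkbp4 chr6:128438657-128438906 (minus strand): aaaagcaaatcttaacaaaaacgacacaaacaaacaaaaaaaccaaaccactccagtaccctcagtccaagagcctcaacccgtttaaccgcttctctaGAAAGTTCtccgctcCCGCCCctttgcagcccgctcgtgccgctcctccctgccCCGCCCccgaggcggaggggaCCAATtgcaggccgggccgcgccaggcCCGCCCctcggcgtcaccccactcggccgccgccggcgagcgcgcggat

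Fkbp5 chr17:28486150-28486399 (minus strand): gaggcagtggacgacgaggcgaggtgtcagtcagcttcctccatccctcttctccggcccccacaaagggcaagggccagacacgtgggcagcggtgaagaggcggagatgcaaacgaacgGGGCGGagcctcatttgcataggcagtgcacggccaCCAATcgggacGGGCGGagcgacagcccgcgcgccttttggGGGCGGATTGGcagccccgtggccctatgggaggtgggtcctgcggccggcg

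Fkbp4 held 3 GC boxes, 1 CCAAT box and 1 heat shock element core, a motif found in 6.69% of promoters of the table. Fkbp5 held 3 GC boxes and 2 CCAAT boxes, 1 of which abuts a GC box, and no heat shock element core. Both were CpG rich, with 25 and 23 CpG dinucleotides. The core of a glucocorticoid response element (ACANNNTGT, the same on both strands), present in 5.84% of promoters, was found in neither window. An oestrogen response element (GGTCANNNTGACC, the same on both strands), present in 0.064%, was found in none of the 8 windows read for listed genes. These matches describe letters in a window and were not tested for binding.

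The coactivators Ncoa1, Ncoa2 and Ncoa3 were above background in 3 of 3 samples on 7 of their 9 probe sets. Ncoa1, which encodes the p160 coactivator SRC-1, read 2408, 2453 and 2116 on its main probe set (1434515_at) in replicates 1, 2 and 3, an SD of 0.14 on the aligned log2 scale. Its probe set 1418594_a_at varied more, with 1932, 2599 and 1331, and replicate 3 was lowest on both. Probe set 1443397_at was above background in no sample, at 14.8, 72.5 and 51.6.

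Ncoa2, which encodes SRC-2, also known as GRIP1 or TIF2, had the widest disagreement among probe sets. Its main probe set (1435233_at) read 4703, 4489.8 and 8370.4, so that replicate 3 stood above the other samples. Probe set 1435234_at, annotated to the same source transcript, was nearly flat at 3354, 3182 and 3342, an SD of 0.16 on the aligned log2 scale against 0.54 for the main probe set. Probe set 1446827_at read 289.7, 1278 and 675, lowest in replicate 1 and highest in replicate 2. Probe set 1450458_at read 15, 432 and 88.2, also highest in replicate 2. The last was above background in replicate 2 alone, and after alignment its lower bounds there were at least 2.72-fold against replicate 1 and 1.99-fold against replicate 3.

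Ncoa3, which encodes SRC-3 or AIB1, was even between embryos on both of its probe sets. Its main probe set (1448027_at) read 3463, 3072 and 3075.5 and 1422737_at read 601, 681 and 654. The latter had an SD of 0.040 on the aligned log2 scale, lower than all but 1.06% of probe sets above background in 3 of 3 samples. Neither probe set had a sample that stood apart, with at most 1.13-fold between the highest and the lowest deposited signal.

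**Figure D2:**
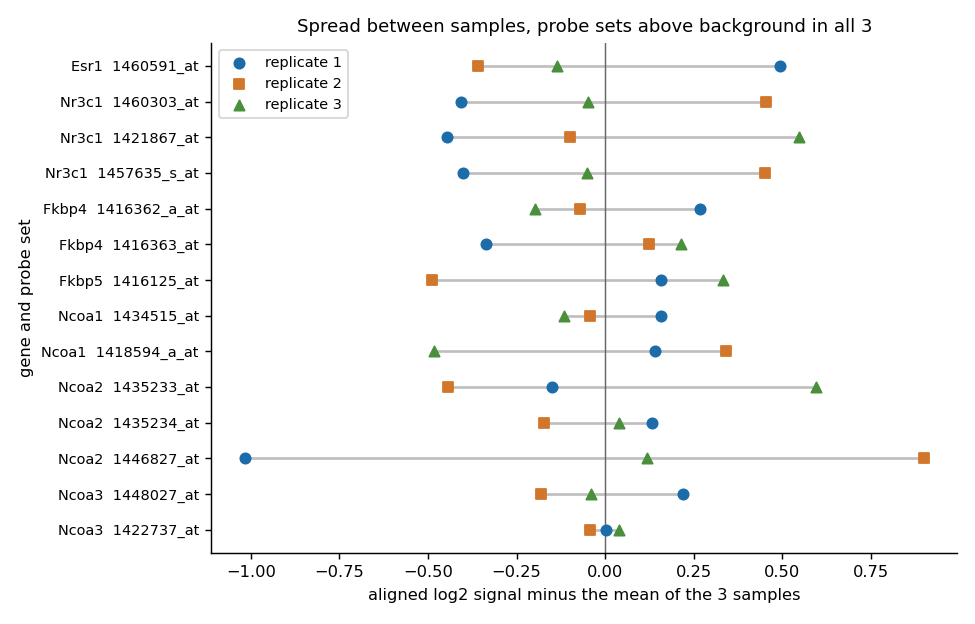
Aligned log2 signal of each sample minus the mean of the 3 samples, for the 14 member probe sets above background in all 3; grey lines join the lowest and highest sample. Ncoa3 1422737_at is narrowest and Ncoa2 1446827_at widest, and no sample is highest throughout.

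Probe sets of 1 gene gave different detection calls in 6 of the 7 member genes with several probe sets, the exception being Ncoa3. Over the array this held for 4351 of 9010 such genes. Of 6 source transcripts that were shared by several member probe sets, 3 had probe sets that disagreed on detection. The main probe sets that were above background in all samples were highest after alignment in replicate 1 for 4 genes, in replicate 2 for 1 gene and in replicate 3 for 2 genes.

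The order of the samples was compared over the members and the array. In deposited signal 12 of 25 member probe sets were lowest in replicate 1 and highest in replicate 2, against 28.2% of all probe sets. These were 1 of 8 main probe sets, where 18.8% of all main probe sets had this order, and 11 of 17 others, where 33.2% of the other probe sets of named genes had it. After alignment the count among the 17 was 8, with 27.1% over the array, and with alignment on all probe sets or quantile normalisation it was 7, with 18.3% and 22.1%. These 17 include probe sets above background in no sample. Among the 14 member probe sets above it in all samples 3 had the order after alignment, near the 19.2% of all such probe sets. In deposited signal 39.7%, 25.4% and 13.2% of such probe sets had it in the low, middle and high tertiles of level, so the share varied with level over the whole array. The ratio of 3′ to 5′ control probe sets of beta-actin, a measure of how far the amplified RNA reached from the 3′ end, was 7.38, 2.21 and 4.42 in replicates 1, 2 and 3, and that of Gapdh 21.5, 14.9 and 14.1. Both ratios were highest in replicate 1, and their part in the order of the probe sets was not tested.

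The spread between embryos was then set against the array as a whole. Over the 14 member probe sets above background in 3 of 3 samples the median SD was 0.43 on the aligned log2 scale, against 0.36 for all 21612 such probe sets. By tertile of level the members' medians were 0.36, 0.43 and 0.34 in the low, middle and high tertiles and those of all probe sets 0.42, 0.37 and 0.32. In all 6 of 14 members lay under the median of their tertile: both Ncoa3 probe sets, 1434515_at of Ncoa1, 1435234_at of Ncoa2 and 1416362_a_at and 1416363_at of Fkbp4. Esr1, Nr3c1 and Fkbp5 had no probe set under it.

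Differences of over 2-fold between embryos after alignment were counted among the 14, a number too small to set the members apart from the array. Between replicates 1 and 2 there was 1 in 14 (Ncoa2 1446827_at), against 20.2% of all such probe sets. Between replicates 1 and 3 there was 1 (the same probe set), against 13.7%, and between replicates 2 and 3 there was 1 (Ncoa2 1435233_at), against 9.85%. No member gene other than Ncoa2 had such a difference on a probe set above background in every sample.

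**Figure D3:**
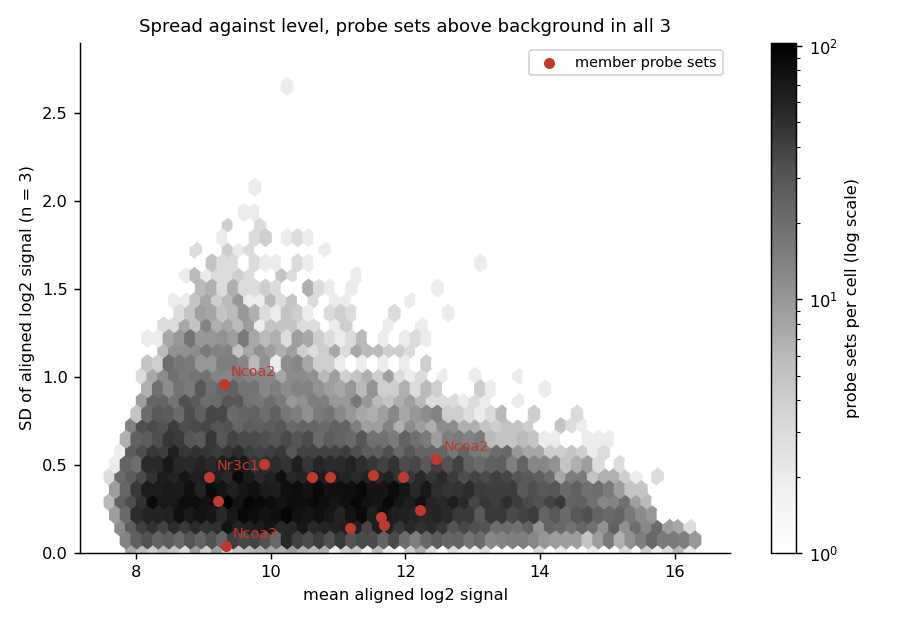
SD of the aligned log2 signal over the 3 samples against its mean, for all 21612 probe sets above background in all 3 (grey cells, darker for more probe sets) and the 14 member probe sets (red). Members lie within the cloud, from 0.040 for Ncoa3 1422737_at to 0.96 for Ncoa2 1446827_at.

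The landmark contrast set the embryo staged by visible fingers against the others, and since it is also the sample with high Xist and Y-linked Eif2s3y under background, landmark and apparent sex cannot be told apart. Replicate 3 was compared with replicates 1 and 2 in limma, over the 29065 probe sets that exceeded background somewhere, of which 20 were members. None of the 20 member probe sets was called at a Benjamini-Hochberg adjusted p under 0.05, nor was any probe set of the array (0.00%). At an unadjusted p under 0.05 there were 0 members and 2.08% of all probe sets. The largest fitted member differences were in Nr3c1 1421866_at, which was negative, and in Fkbp4 1459808_at and Ncoa2 1435233_at, which were positive, each with a limma adjusted p of 1.00. The first exceeded background only in replicate 1 and the next was not above it in replicate 2, so their sizes are not measured. Ncoa2 1435233_at, above background in every sample, differed by 0.89 ± 0.61 (log2 difference ± SE). Differences were positive in 10 of 20 members, with a median of 0.017, and in 15614 of all 29065 probe sets, with a median of 0.047. With 1 residual degree of freedom the lack of calls does not show that the embryos were alike.

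Replicates 1 and 2 were each fitted alone in the same way, although no label sets them apart. These contrasts use the same 3 samples and are not independent of each other. For replicate 1, 0 of 20 members were called, as were 0.00% of all probe sets, and 3 of 20 had an unadjusted p under 0.05, against 11.4% of all. Those 3 were Ncoa2 1450458_at, Esr1 1435663_at and Ncoa2 1446827_at, with limma adjusted p of 0.31, 0.39 and 0.43. The first and second were not above background in replicate 1, so their fitted sizes are not measured, and the bounds given above apply. The third was above background in every sample and differed by -1.52 ± 0.57 (log2 difference ± SE). The median difference of the members was -0.34 and that of all probe sets 0.080. With alignment on all probe sets the members' median was 0.058 and that of the array 0.48. When the fit kept only what was detected in every sample, 14 members remained, with a median of 0.10 against 0.12 for the array. The sign of the members' median thus depended on these choices. For replicate 2, 0 of 20 members and 0.00% of all probe sets were called, and 0 members had an unadjusted p under 0.05, against 5.05% of all. The same 3 probe sets had the largest fitted differences there, all positive, and again only Ncoa2 1446827_at was above background in every sample, at 1.35 ± 0.70.

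**Figure D4:**
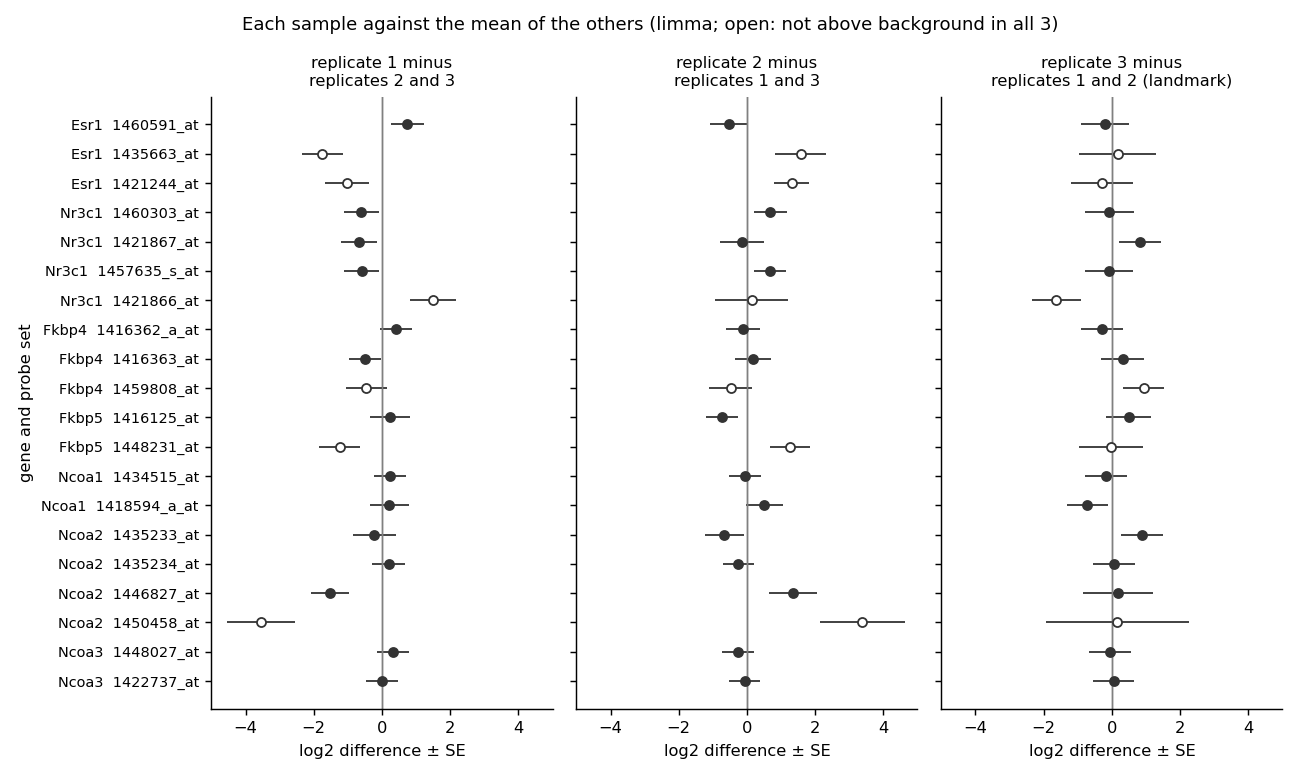
Log2 difference of each sample from the mean of the others, with the limma standard error as bars, for the 20 member probe sets that exceeded background in any sample. Open symbols mark the 6 probe sets not above background in every sample, whose sizes are set in part by values under background. Most bars in the right panel cross 0, and the filled symbols farthest from 0 are those of Ncoa2 1446827_at, at -1.52 in the left and 1.35 in the middle panel.

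Of 77 other genes of steroid receptor signalling on 7 lists, 68 were measured and 59 were above background in 3 of 3 samples, where 60.5% of all genes measured were. The median SD of the 59 was 0.31 on the aligned log2 scale. Of the 68, 63 exceeded background somewhere and were fitted, and limma called 0 of these 63 in each of the 3 contrasts. The unadjusted p cutoff used above picked out only Srd5a3 in replicate 1 and Hsd11b1 in replicate 3, both with a positive difference. Hsd11b1 entered the fit through replicate 3 alone, where its signal of 211 was just over that sample's background of 197. The size of its difference is therefore not measured.

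Among other steroid receptors Pgr, the progesterone receptor and a classical oestrogen target, read 1464, 1555 and 1586, and the mineralocorticoid receptor Nr3c2 read 81.3, 196 and 183, above background in no sample. All 13 of 13 measured genes of the Hsp90 and Hsp70 machinery were above background in every sample. The Hsp70 family member Hspa8 had 80223 ± 6272, Hsp90aa1 52188 ± 4773 and the J-domain co-chaperone Dnaja1 24120.1 ± 1147 (SD, n = 3). All 16 of 16 other coactivators were above background too, with Ddx17 at 54378 ± 7142, Rbm39 at 24535 ± 10867 and Ddx5 at 23896 ± 1404. Rbm39 read 12017, 31549 and 30040.1, so replicate 1 stood below the other samples on that probe set. Of the corepressors 8 of 9 were above background in 3 of 3 samples, with Tbl1x, a subunit of the NCoR complex, at 13331 ± 4215, Sap30 at 9820 ± 1125 and Tbl1xr1 at 7358 ± 1298, and Gps2 in 2 samples. Hdac3, the deacetylase of that complex, read 3392, 4141 and 2914.

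Enzymes of steroid metabolism were the least detected list, with 3 of 9 above background in 3 of 3 samples. These were Hsd17b12 (14526 ± 3863), Hsd17b4 (13585 ± 1227) and Srd5a3 (1282, 488 and 519). Hsd17b12 and Hsd17b4 are also known for roles in fatty acid metabolism, and Srd5a3 for one in protein glycosylation. Hsd17b3, Hsd17b1 and Cyp11a1, which act in gonadal steroid synthesis, were above background in no sample. Cyp17a1, on the same list, read 186, 108 and 116 in replicates 1, 2 and 3 and exceeded background only in replicate 1. Hsd11b1, which regenerates active glucocorticoid, read 33.9, 35.3 and 211 and exceeded background only in replicate 3, while Hsd11b2, which inactivates it, read 394, 196 and 378 and exceeded background in all but replicate 2.

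Genes known as glucocorticoid targets were above background in 11 of 11 cases. Nfkbia had 23523 ± 6566, Errfi1 11869 ± 2892 and Sgk1 8566 ± 2070, and Tsc22d3, which encodes GILZ, read 6017, 4897 and 6919. Fitted differences were positive for 9, 4 and 4 of these 11 in replicates 1, 2 and 3 against the others, with medians of 0.44, -0.39 and -0.24. Over the 63 fitted genes of all lists they were positive for 48, 15 and 33, with medians of 0.35, -0.21 and 0.029. Over the array they were positive for 15936, 13576 and 15614 of 29065 probe sets. Of known oestrogen targets 8 of 9 exceeded background in every sample, including Igfbp4 (41393 ± 1138), Ccnd1 (10948 ± 950) and Xbp1 (10874 ± 2010.0). For the 8 oestrogen targets fitted they were positive for 6, 1 and 6, with medians of 0.14, -0.14 and 0.072, and the medians over all probe sets were 0.080, -0.051 and 0.047. Greb1 was even between embryos at 2745, 2803 and 2640, and Cited1 was above background in no sample. These genes respond to many other signals as well, and their levels say nothing of receptor activity here.

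**Figure D5:**
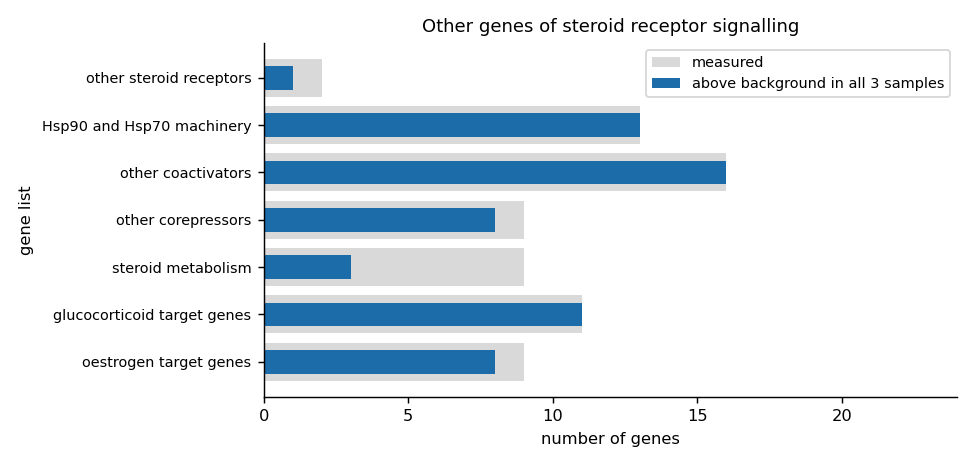
Number of genes measured (grey) and above background in all 3 samples (blue) on each list of steroid receptor signalling genes. All measured chaperone, coactivator and glucocorticoid target genes are above background, and 3 of 9 genes of steroid metabolism.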

How the data were processed

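Total RNA of each tubercle was amplified in 2 rounds, labelled with biotin and hybridised to 1 Affymetrix MOE430 array, per the labels' protocols. The deposited intensity values, 1 per probe set and sample, came from the authors' GCOS software, per the submitters' processing notes; which version, algorithm and settings were used is not given in the sources used here. Each sample had a mean of 1500 once 2% of values were trimmed from either end, which shows a global scaling. No scanner files were used. All 3 columns matched a sample.

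Of 45101 probe sets 64 controls were set aside. A platform annotation paired 34945 with exactly 1 symbol, and the 932 with several and 9160 with none were not named. Signals under 1 were set to 1, log2 transformed and aligned on the median of probe sets above background in 3 of 3 samples, because medians differed by 0.23. Signals are printed as deposited, while log2 differences, log2 SDs and folds use aligned values unless a fold is said to be of deposited signal. A fold against a sample not above background is a bound against that background or the signal itself if higher. limma 3.58.1 (lmFit, eBayes, two-sided, Benjamini-Hochberg) compared each sample with the others, leaving 1 residual degree of freedom and assuming that the lone sample varies like the rest; the code was tested on simulated data of the landmark design, where no changed probe set passed the adjusted threshold at any size tried. limma pools variance over probe sets, so an SE is not the replicate error of 1 gene.

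Members, lists and tests were chosen with earlier results of these data known. The text names every member and the 3 largest member differences per contrast. In each list it names the 3 genes of highest mean signal and those above background in no sample. Hdac3, Tsc22d3, Greb1, Gps2, Hsd11b1, Hsd11b2 and Cyp17a1 were added after their values were seen. With 3 samples no likeness between genes was computed. Listed genes without a symbol in the annotation were not analysed here.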

Additional observations from a re-analysis of the deposited data

How the results depend on the processing

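No member probe set was called in any of the 3 contrasts under any alternative run: no filter, probe sets above background in 3 of 3 samples, a variance trend, no alignment, alignment on all probe sets, quantile normalisation or a floor of 16. The 3 contrasts leave 1 residual degree of freedom, so this says little about stability. Over the whole array the landmark contrast called 1 probe set with the filter on 3 of 3 samples and 86 with alignment on all probe sets, and replicate 1 alone called 511, 557 and 144 with that filter, the variance trend and that alignment; replicate 2 alone called 251 with that alignment. Taking the probe set of median signal for each gene left 4 member genes above background in 3 of 3 samples in place of 7; the alternative rests on dimmer probe sets by construction. Leaving out each replicate gave 7 member genes throughout, 14 to 16 member probe sets, 59 to 60 pathway genes and a median SD of 0.26 to 0.29. Those SDs are over fewer samples than that of the main run, so they cannot be set against it. The members' median SD was 0.43 in the main run and 0.36 with no alignment. It was 0.44 with alignment on all probe sets and 0.31 with quantile normalisation. The median SD of the array was not computed under these alternatives. With background at the 90th and 99th percentiles 17 and 14 member probe sets were above it. All 63 alternative values of the member differences named in the contrasts kept their direction. Those differences were picked as the largest of each contrast in these same data, so a kept direction says little about stability. Probe sets not above background in every sample have no value under the filter on 3 of 3. No paired analysis was possible because the samples form 1 group.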
